A study of Mus musculus with 32 samples.

Results

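The S100 calcium-binding family was examined in monocytes and in the gut cells sorted as their progeny. The members are 10 genes, chosen by name as S100a4, S100a6, S100a8, S100a9, S100a10, S100a11, S100a13, S100a14, S100a16 and S100g, of 24411 genes in the table of CD11c-DTR recipients and 24421 in the table of CX3CR1-DTR recipients, and all 10 passed the filter on low counts in both. Samples were bulk RNA-seq libraries of sorted mouse cells on a C57BL/6 background. The graft (3 libraries) was Ly6C+ monocytes of Cx3cr1 GFP/+ donors carrying CD45.1, and it was not treated with diphtheria toxin (DTx). The labels give its organ as blood and its genotype as that of the Itgax-DTR/GFP transgene, whereas the study describes bone marrow (BM) monocytes. Recipients were irradiated wild type mice carrying CD11c-DTR BM, in which the Itgax (CD11c) promoter drives the DTx receptor, and they were given DTx before and after the transfer. Graft-derived cells were sorted from their colon on day 4 (3 libraries), day 8 (3) and day 12 (4) and from their ileum on days 4, 8 and 12 (4 each). The study sorted them by CD45.1 and GFP, and the labels give a gate of live CD45+ CD11b+ CD64+ Ly6C- MHCII+ cells. In a second transfer the recipients were irradiated wild type mice carrying CX3CR1-DTR BM, with the receptor under the Cx3cr1 promoter. By the study's account they were treated with DTx as well. From their colon came 6 libraries, harvested on day 14 by the same account. It gives fewer repeats than the 6 libraries held and all used here. Cells of CX3CR1-DTR recipients have no ileal counterpart here. Host cells of other lineages remain in both kinds of recipient, and the age of the animals is not given in the labels.

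S100 proteins are small EF-hand proteins that bind calcium and then dock onto target proteins. S100a8 and S100a9 pair as calprotectin, an antimicrobial and inflammatory complex abundant in neutrophils and in monocytes newly released from BM, and faecal calprotectin is a clinical marker of gut inflammation. S100a4 is a monocyte and motility-associated member, S100a6, S100a10, S100a11 and S100a13 are found in many cell types, and S100a14, S100a16 and S100g (calbindin-D9k, the vitamin D-dependent calcium carrier of enterocytes) are best known from epithelia.

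In mm9, 9 of the 10 members lie on chromosome 3. A first block of 7 spans 181.3 kb (90318357 to 90499643) and holds S100a13, S100a14, S100a16, S100a4, S100a6, S100a8 and S100a9 in that order. A second block of 44.1 kb (93324418 to 93368567) holds S100a10 and S100a11, and S100g lies on chromosome X (159399924 to 159402531). Neighbours within the first block, S100a16 and S100a4, moved in opposite directions from the graft to the gut. RefSeq promoter windows, of 250 bases before to 50 after the annotated start in GRCm38.p6, were held for 8 of the 10 members (all but S100a10 and S100a14). A TATA box, searched as TATAAA on both strands, was in the windows of 4 of these 8, against 13.6% of 32851 promoters. Relative to the annotated start, the match began at -31 in S100a4 and -30 in S100a8. In S100a9 and S100g it began at 0, the annotated start itself, and not upstream of it. The 4 windows are shown because 3 belong to genes of the monocyte programme (S100a8, S100a9, S100a4) and 1 to S100g, which was not read in the graft. They were taken from chr3:90668821-90669120 on the plus strand (S100a8), chr3:90695672-90695971 on the minus strand (S100a9), chr3:90603520-90603819 on the plus strand (S100a4) and chrX:162964550-162964849 on the minus strand (S100g). Capitals mark the TATA box, the Ets family core AGGAAG and the C/EBP half-palindrome TTGCNNAA, both on either strand.
S100a8: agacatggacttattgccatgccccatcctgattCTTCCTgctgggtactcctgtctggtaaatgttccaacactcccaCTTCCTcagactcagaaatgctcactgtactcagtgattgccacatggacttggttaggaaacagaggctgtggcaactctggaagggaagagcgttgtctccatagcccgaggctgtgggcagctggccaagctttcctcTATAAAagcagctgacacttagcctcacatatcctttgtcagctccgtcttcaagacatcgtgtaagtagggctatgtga
S100a9: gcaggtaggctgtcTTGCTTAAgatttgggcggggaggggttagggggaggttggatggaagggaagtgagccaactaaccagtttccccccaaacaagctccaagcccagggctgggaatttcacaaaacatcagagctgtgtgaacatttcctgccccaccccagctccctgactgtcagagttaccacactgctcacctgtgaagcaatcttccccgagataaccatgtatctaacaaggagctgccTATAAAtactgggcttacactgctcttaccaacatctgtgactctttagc
S100a4: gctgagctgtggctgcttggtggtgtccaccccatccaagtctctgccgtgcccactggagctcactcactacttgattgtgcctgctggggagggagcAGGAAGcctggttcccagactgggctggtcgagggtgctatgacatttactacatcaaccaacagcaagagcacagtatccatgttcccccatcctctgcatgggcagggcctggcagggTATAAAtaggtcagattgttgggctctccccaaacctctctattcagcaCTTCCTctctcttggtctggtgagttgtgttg
S100g: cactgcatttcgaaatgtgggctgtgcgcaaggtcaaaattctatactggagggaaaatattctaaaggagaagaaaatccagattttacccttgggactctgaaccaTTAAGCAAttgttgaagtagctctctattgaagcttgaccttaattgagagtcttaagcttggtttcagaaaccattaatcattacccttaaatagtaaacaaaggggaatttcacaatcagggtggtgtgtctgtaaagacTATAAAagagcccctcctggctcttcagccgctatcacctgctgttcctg
The Ets core was in the windows of S100a4, S100a8 and S100a16, against 35.4% of all promoters, and the C/EBP letters in those of S100a9 and S100g, against 10.8%. The AP-1 letters TGANTCA were in those of S100a11 and S100a16, against 7.81%. These are matches of letters and not tested sites.

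Libraries of CD11c-DTR recipients and their graft held 591817 to 5228664 reads on genes, and those of CX3CR1-DTR recipients 1223772 to 4218027. Counts were scaled to 10000000 mapped reads per library and are called normalized reads, so 1 read equals 1.17 to 9.22 of them in CD11c-DTR recipients and their graft. Values at or under 3 counts are treated as the floor. Reads come from the 3′ end, so values are compared between libraries and not between genes. Markers of other cells were present in the engrafted libraries beside either gate. Sums of 12 epithelial genes (Epcam, Vil1, Krt20, Lgals4 and others) were 34.9 to 58.9 normalized reads in the graft, with 8 of the 12 at the floor, 114603 to 181039 in colon and 21141 to 53083 in ileum on days 8 and 12. Sums of 9 pan-leukocyte genes (Ptprc, Itgam, Tyrobp and others) were 96106 to 109824 in the graft, 2185 to 9345 in colon and 6294 to 47840 in ileum, and those of 10 macrophage genes (Csf1r, Cx3cr1, C1qa and others) were 9796 to 12370, 4409 to 22893 and 10702 to 105914. All 10 small intestinal and all 7 colonic enterocyte genes were at the floor in the graft. T cell genes reached at most 38.5 in colon and 716 in ileum, B cell genes 54.0 and 1028, fibroblast genes 4667 and 4634, and endothelial genes 658 and 3210. Ileum day 4 replicates 2 and 3, both of experiment 1, went against their label in colonic enterocyte genes. Their 7 colonic enterocyte genes (Car1, Slc26a3, Aqp8 and others) summed to 41072 and 37777, above the 15396 to 27912 of colon day 4, whereas replicates 1 and 4 of experiment 2 had 3470 and 5157. With experiment 2 alone for ileum day 4, 9 members rather than 8 differed from the graft there. The share of all genes in that fit is not given here. S100a6 was the addition (-2.16). S100a4, S100a8, S100a9, S100a10 and S100a11 were then at -5.61, -2.74, -2.23, -1.82 and -2.13 on the log2 scale from the graft (adjusted p = 0.000178 to 0.0200 but for S100a4, at 2.65e-05). Colon day 8 replicate 1 is not among the samples of the study's own source data and enters only where named. Its epithelial, pan-leukocyte and macrophage genes summed to 84532, 31342 and 85263 normalized reads. All of these sums lie outside the colon ranges above, with the epithelial sum lower and the others higher. Nothing in the labels says that replicates came from separate animals, so p-values measure the spread between these samples.

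S100a8, S100a9 and S100a4, the monocyte members, fell from the graft to every colon and ileum time point. S100a9 was at 3707 to 5340 normalized reads in the graft, at 4.87 to 205 in the colon libraries and at 27.6 to 895 in the ileum libraries, and S100a4 fell from at least 30573 in the graft to at most 949. S100a14, S100a16 and S100g, the epithelial members, were at or under 1 read in each graft library and above the floor in each colon and ileum library used. S100a6 of the broadly expressed members lay above the graft in each colon library used and below it in each ileum library of days 8 and 12. S100a10 lay below the graft in both segments. By the adjusted p of edgeR, 7, 7 and 6 members differed between the graft and colon on days 4, 8 and 12, beside 60.4%, 59.1% and 62.6% of all genes tested. From the graft to ileum 8, 9 and 9 members differed, beside 56.7%, 53.9% and 55.9% of all genes. With shares this high among all genes the counts of members say little, and directions and sizes are given gene by gene. Scaling by library totals in place of TMM moved the median log2 change of all genes in these comparisons from 0.20 to 0.24 down to -0.35 to -0.04, and the share of calls that were rises from 59.5% to 64.2% down to 42.4% to 51.1%. All 6 of these comparisons share the 3 graft libraries.

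**Figure D1:**
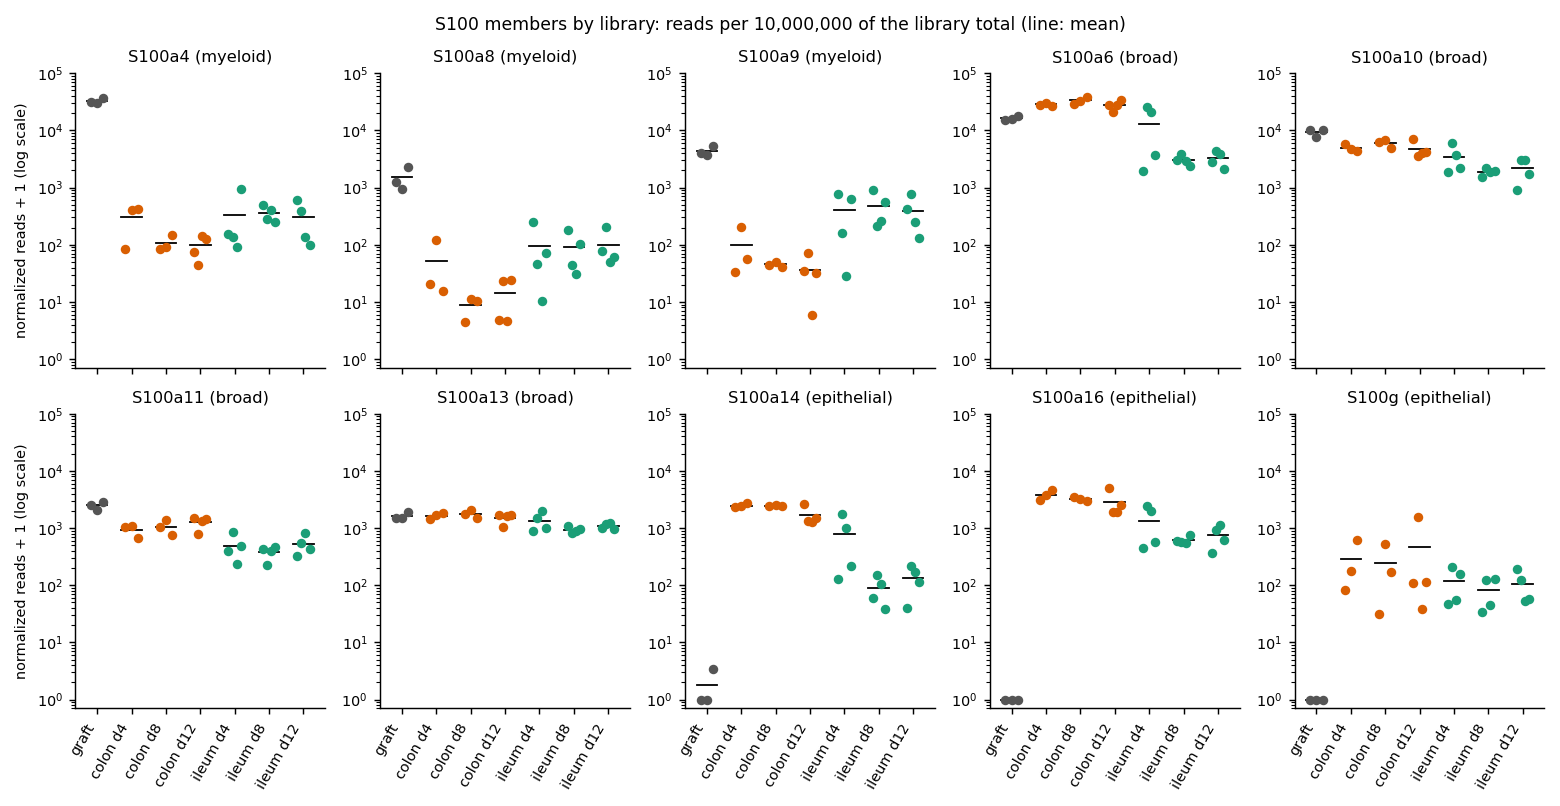
Normalized reads per 10000000 mapped reads, plus 1 and on a log axis, of the 10 members in each of the 25 libraries of CD11c-DTR recipients and their graft, with a line at each group's mean. S100a4, S100a8 and S100a9 are high in the 3 graft libraries and low in gut, S100a14, S100a16 and S100g are the reverse, and S100a6 splits the ileum day 4 libraries into 1961 and 3780 against 20810 and 25679.

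S100a8 read 1260.3, 938 and 2318 normalized reads in the 3 graft libraries. In colon it read 19.7, 119 and 14.2 on day 4, 3.38, 10.4 and 9.36 on day 8, and 3.89, 21.8, 3.65 and 23.09 on day 12. These colon values rest on 1 to 40 reads per library, and no gut library reached the lowest graft value. In ileum it read 251, 44.8, 9.22 and 71.3 on day 4, 182, 43.8, 30.12 and 102 on day 8, and 77.0, 203, 49.4 and 59.1 on day 12. Its log2 fold change from the graft to colon was -4.60 ± 0.88 (SE) on day 4 (adjusted p = 0.000101), -7.19 ± 1.06 on day 8 (adjusted p = 3.64e-06) and -6.56 ± 0.88 on day 12 (adjusted p = 9.77e-07). To ileum it was -3.46, -3.48 and -3.56 (SE 0.74 to 0.75, adjusted p = 0.000258 to 0.000418).

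S100a9, its partner in calprotectin, read 4039, 3707 and 5339.9 in the graft. Colon values were 32.3, 205 and 54.9 on day 4, 43.9, 49.6 and 39.8 on day 8, and 33.1, 71.6, 4.87 and 31.3 on day 12. Ileum values were wider, at 779, 160.1, 27.6 and 642 on day 4, 895, 212, 261 and 557 on day 8, and 421, 778, 252 and 132 on day 12. No colon library thus exceeded 205, while the highest ileum library reached 895. The fold change from the graft was -5.14 ± 0.93, -6.37 ± 0.99 and -6.75 ± 0.89 on the log2 scale for colon (adjusted p = 4.87e-05, 7.97e-06 and 7.75e-07 on days 4, 8 and 12). For ileum it was -3.02 ± 0.75, -2.58 ± 0.73 and -3.05 ± 0.74 (adjusted p = 0.00142, 0.00476 and 0.00126). In bulk samples, fewer cells of a type and less RNA per cell cannot be told apart.

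Most of 14 neutrophil and granule genes (among them Ngp, Camp, Mpo, Elane and Cxcr2) also fell, with 10 called lower and 1 higher of 13 tested in colon and 11 lower in ileum on day 12. Of all genes, 24.9% were called lower and 37.7% higher in colon, and 20.0% lower in ileum. The 1 gene of the list that rose in colon was Ly6g (15.9 ± 4.18 to 220.1 ± 101.5, log2 4.07, adjusted p = 0.000237, named after its values were seen). The list summed to 9643 to 11002 in the graft, 585 to 1594 in colon and 342 to 774 in ileum on day 12, and Mpo, Elane and Ctsg were at the floor in both segments on days 8 and 12. Between the segments on day 12, 5 of these genes (Lcn2, Csf3r, Retnlg, Ngp and Mmp8) were lower in colon, as S100a8 and S100a9 were, while Ly6g and Cd177 were higher and the median was -1.81. Of all genes, 17.2% were called lower and 15.3% higher in colon. The genes in this contrast were named by their result. Cd177 averaged 782.7 ± 380.2 in colon and 87.6 ± 46.9 in ileum, so the sum follows few genes. Set against the pan-leukocyte genes of the same library, S100a9 read 34.3 to 48.6 per 1000 pan-leukocyte reads in the graft, 1.87 to 10.2 in colon and 8.65 to 45.3 in ileum on day 12. S100a8 read 8.68 to 21.1, 1.02 to 7.53 and 1.61 to 11.8 on that scale. On day 12 the ileum ranges thus overlap the graft on this scale and both colon ranges lie below it. On day 4 the colon ranges, 13.6 to 37.6 for S100a9 and 3.54 to 21.8 for S100a8, overlap the graft too. These ratios, chosen after values were seen, are a description, and the part of other cells in the results was not tested.

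S100a4 (fibroblast-specific protein, a regulator of motility) read 31480.3, 30573 and 37193 in the graft. It read 82.5, 403 and 423 in colon on day 4, 84.4, 91.3 and 149 on day 8, and 74.0, 43.6, 140.1 and 127 on day 12. In ileum it read 152, 134, 92.2 and 949 on day 4, 488, 283, 412 and 248 on day 8, and 611, 395, 138 and 97.6 on day 12. The highest gut value, 949, thus stood against a lowest graft value of 30573. The log2 fold change to colon was -6.41 ± 0.88, -7.97 ± 0.94 and -7.999 ± 0.83 (adjusted p = 1.37e-06, 1.69e-07 and 1.94e-08), and to ileum -6.31, -5.99 and -6.27 (SE 0.76 to 0.77, adjusted p = 3.45e-07 to 6.38e-07). Per 1000 pan-leukocyte reads it went from 283 to 339 in the graft to 4.67 to 53.7 in colon and 6.41 to 23.0 in ileum on day 12, so the groups stay apart from the graft on that scale too.

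Among the broadly expressed members, S100a6 (calcyclin) kept or exceeded its graft level in the colon libraries used and was lower in ileum on days 8 and 12. Graft libraries read 15506, 15698 and 18061 normalized reads. Colon read 28039, 30666 and 27031 on day 4, 29020.5, 33241 and 38006 on day 8, and 28021, 20859.8, 27738 and 34161 on day 12. All 10 colon libraries used lay above the 3 graft libraries. Colon day 8 replicate 1, left out here, held 14279 normalized reads over all 10 members together, so its S100a6 lay below each graft library. The fitted log2 difference of 1.14 ± 0.57, 1.28 ± 0.57 and 1.118 ± 0.54 missed the threshold (adjusted p = 0.0858, 0.0566 and 0.0750). With the experiment as replicate block it passed, at 1.49, 1.52 and 1.29 (adjusted p = 0.0150, 0.0145 and 0.0222). It also passed in 1, 4 and 2 of the 25 fits that left out 1 library. The spread of each gene is shared by all groups of the fit, ileum day 4 among them. In ileum it read 2990.2, 3894, 2975 and 2342 on day 8 and 2857, 4397, 3861 and 2154 on day 12, below the graft in all 8 libraries (log2 -1.90 ± 0.53 and -1.86 ± 0.53, adjusted p = 0.00402 and 0.00429). On day 4 the ileum libraries read 1961 and 3780.1 in experiment 2 and 25679 and 20809.9 in experiment 1, and the difference from the graft was 0.13 ± 0.53 (adjusted p = 0.846) with all 4 and -2.16 (adjusted p = 1.09e-05) with experiment 2 alone.

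S100a10 (p11), which binds annexin A2 and carries plasminogen-related and channel-trafficking roles, read 10088, 7816 and 9999 in the graft. It read 6963, 3593, 4070.1 and 4163 in colon on day 12 and 919, 3007, 2985 and 1755 in ileum on day 12. Earlier it read 4311 to 6905 in colon, 1885 to 5948 in ileum on day 4 and 1562 to 2218 in ileum on day 8. All colon and ileum libraries lay under the lowest graft value, and the fall passed the test in ileum on days 4, 8 and 12 (log2 -0.997, -1.74 and -1.67, adjusted p = 0.0167, 0.000195 and 0.000269) and not in colon (-0.57, -0.38 and -0.66, adjusted p = 0.187, 0.387 and 0.0966). The day 4 call in ileum is lost without ileum replicate 1, ileum replicate 4 or graft replicate 3, at a log2 value of -0.80 in the weakest of these.

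S100a11 (calgizzarin) read 2585, 2033 and 2846 in the graft, 1518, 782, 1307 and 1455 in colon on day 12 and 328, 549, 806 and 427 in ileum on day 12. Earlier it read 661 to 1375 in colon and 226 to 843 in ileum, so no gut library reached the lowest graft value. Its fall in ileum was -1.92 ± 0.36, -2.11 ± 0.36 and -1.79 ± 0.36 on the log2 scale (adjusted p = 9.93e-05, 3.65e-05 and 0.000180). In colon it was -1.07 ± 0.39 on day 4 (adjusted p = 0.0199), -0.98 ± 0.39 on day 8 (adjusted p = 0.0320) and -0.62 ± 0.35 on day 12 (adjusted p = 0.130). Leaving out colon day 4 replicate 3 or graft replicate 3 ended the first call, at -0.86 in the weaker case, and leaving out colon day 8 replicate 2 or 4 or graft replicate 3 the second, with -0.82 as the weakest value. The day 8 call is also lost with the experiment as replicate block (-0.95, adjusted p = 0.0516). S100a13, which takes part in the release of leaderless growth factors, read 1502 to 1920.5 in the graft, 1034 to 2051 in colon and 819 to 1991 in ileum. Its 8 ileum libraries of days 8 and 12, at 819 to 1245, lay below the graft libraries. None of its 6 differences from the graft passed the test (log2 -0.24 to 0.35, adjusted p = 0.308 to 0.748).

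**Figure D2:**
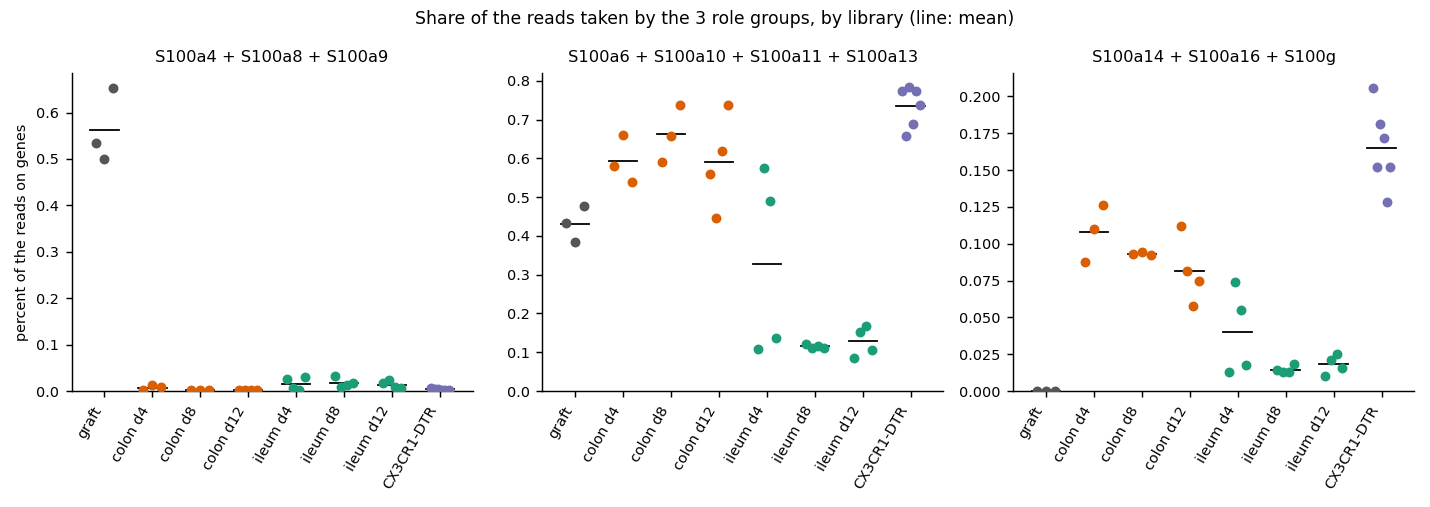
Percent of the reads on genes taken by the 3 monocyte members, the 4 broadly expressed members and the 3 epithelial members in each library, with a line at the mean. Monocyte members take 0.562% ± 0.080 (SD, n = 3) in the graft and 0.00246% in colon on day 12, and broadly expressed members take 0.663% in colon and 0.115% in ileum on day 8.

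The epithelial members appeared where the graft had next to none. S100a14, which acts in epithelial cell contact and motility, had 0, 0 and 1 read in the graft, and 2309, 2386 and 2713 normalized reads in colon on day 4, 2462, 2508 and 2448 on day 8, and 2618, 1327, 1283 and 1530.5 on day 12. Ileum read 125, 1755, 995 and 214 on day 4, 59.6, 148, 104 and 37.4 on day 8, and 38.5, 218, 166 and 112 on day 12. Against a floor of 3 counts per graft library the colon level was at least 345-fold higher (days 4 and 8) or 236-fold higher (day 12), and the ileum level at least 108-fold, 12.2-fold and 18.7-fold higher on days 4, 8 and 12. The ileum day 4 bound is 62.1-fold without replicate 2 and 23.7-fold with experiment 2 alone.

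S100a16, a partner of S100a14, had no read in the graft, which allows up to 3 counts per library. Colon read 3109.8, 3798 and 4604 on day 4, 3519, 3202 and 3031 on day 8, and 4943, 1906, 1935 and 2559.6 on day 12. Ileum read 446, 2421, 1954 and 578 on day 4, 605, 576, 542 and 765 on day 8, and 369, 921, 1126 and 627 on day 12. Its level on day 12 exceeded the graft at least 396-fold in colon and at least 106-fold in ileum. On day 4 the ileum bound was 188-fold, and 71.4-fold with experiment 2 alone. Within ileum day 4, both epithelial members were higher in the libraries of experiment 1 than in those of experiment 2.

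S100g also had no read in the graft and was the most uneven member in gut. It read 80.7, 178 and 618 in colon on day 4, 30.4, 519 and 169 on day 8, and 109, 1576, 37.8 and 112 on day 12. In ileum its values ran from 32.5 to 207 over the 12 libraries. Colon and ileum values overlapped on each day. On days 4, 8 and 12 S100g exceeded the graft at least 40.8-fold, 33.4-fold and 64.0-fold in colon and at least 16.2-fold, 11.4-fold and 14.8-fold in ileum. Each colon bound leans on 1 library, and it is 18.0-fold without day 4 replicate 3, 13.9-fold without day 8 replicate 3 and 12.04-fold without day 12 replicate 2. With experiment 2 alone the ileum day 4 bound is 14.2-fold. Like the epithelial marker genes given above, the 3 epithelial members were low or absent in the graft and present in gut. Of those 12 genes, 8 were at the floor in the graft and none in gut. Within gut the match was partial. Sums of those genes were higher in colon than in ileum on days 8 and 12, whereas values of S100g overlapped. Relative to those genes, S100a14 was higher in colon than in ileum on day 12. The part of those genes in these results was not tested.

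Colon against ileum gave the second contrast. On day 8, 8 of 10 members differed beside 35.0% of all genes, and on day 12 again 8 of 10 beside 32.5%. In both cases S100a6, S100a10, S100a11, S100a14 and S100a16 were higher in colon, S100a4, S100a8 and S100a9 were higher in ileum, and S100a13 and S100g missed the threshold. Scaling by library totals in place of TMM moves the median of all genes in this contrast from -0.05 to 0.24 on day 8 and from -0.01 to 0.11 on day 12, and the share of called genes that are higher in colon from 47.8% to 66.2% and from 47.0% to 56.0%. On day 4 no member passed the edgeR test, beside 3.18% of all genes. DESeq2 called 1, and 6 passed with experiment 2 alone for ileum. Shares of all genes in those other fits are not given here, so these counts are not read as a result about the members.

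**Figure D3:**
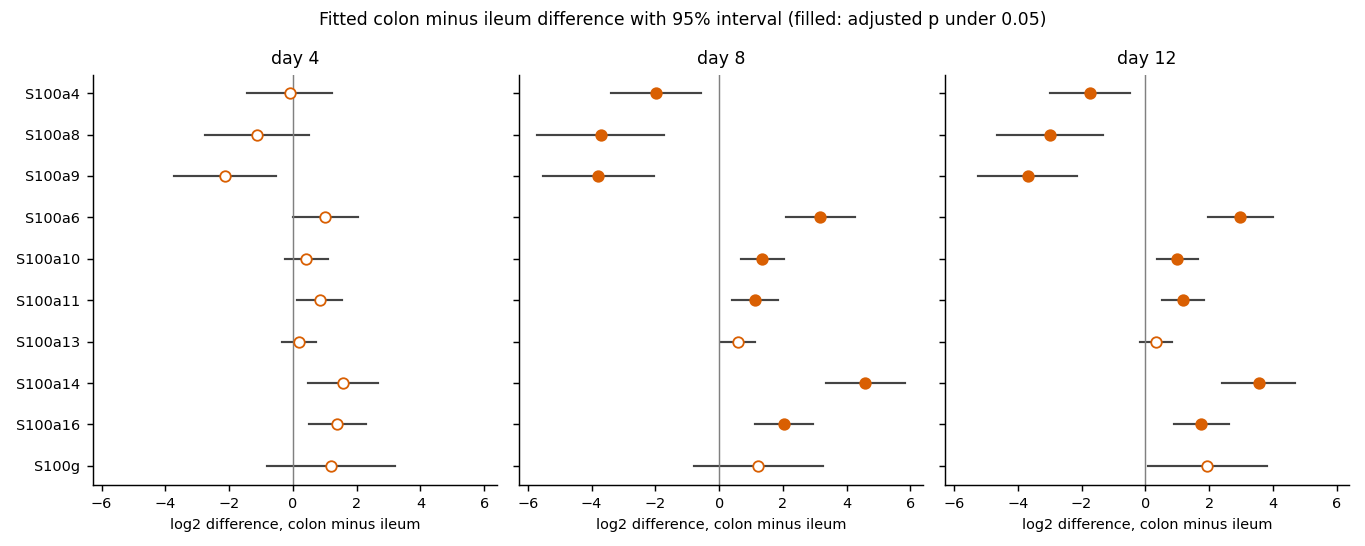
Fitted log2 difference, colon minus ileum, of each member on days 4, 8 and 12 with its 95% interval, filled where the adjusted p is under 0.05. On days 8 and 12 the 3 monocyte members lie left of 0, at -1.73 to -3.79, and S100a6, S100a10, S100a11, S100a14 and S100a16 right of it, at 1.00 to 4.58.

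Of the members higher in colon, S100a14 differed by 4.58 ± 0.63 on the log2 scale on day 8 (adjusted p = 0.000122) and by 3.55 ± 0.58 on day 12 (adjusted p = 0.000374). No colon library of days 8 and 12 used in the fit was below 1283 normalized reads and no ileum library above 218. Colon day 8 replicate 1, left out of the fit, read 342. S100a16 differed by 2.04 ± 0.46 and 1.76 ± 0.44 (adjusted p = 0.00246 and 0.00454). S100a6 was higher in colon by 3.18 ± 0.55 and 2.98 ± 0.52 (adjusted p = 0.000312 and 0.000479). Its lowest colon library used was at 20859.8 and its highest ileum library of those days at 4397. Within single experiments the day 12 difference, taken as log2(normalized reads + 50), was 2.66, 2.84 and 3.96 for S100a6 and 3.32, 3.29 and 3.28 for S100a14 in experiments 1, 2 and 3. On day 12 experiments 1 and 3 held 1 library of each segment, and experiment 2 held 2 of each.

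S100a10 was higher in colon by 1.35 ± 0.35 on day 8 (adjusted p = 0.00476) and 1.00 ± 0.32 on day 12 (adjusted p = 0.0212). The second call is lost without any of 3 libraries and falls to 0.77 without ileum day 12 replicate 1. S100a11 was higher by 1.123 ± 0.36 (adjusted p = 0.0190) and 1.17 ± 0.34 (adjusted p = 0.0108), with overlapping values on day 12. Its day 8 call is lost with all 4 colon day 8 libraries (adjusted p = 0.112), without colon day 8 replicate 3 (0.91 on the log2 scale) and without ileum day 8 replicate 2 (0.89). For S100a13 the difference was 0.59 on day 8 (95% interval 0.06 to 1.13, adjusted p = 0.0938) and 0.33 ± 0.25 on day 12 (adjusted p = 0.343). S100g differed by 1.22 ± 1.03 and 1.94 ± 0.95 (adjusted p = 0.380 and 0.128), and without colon day 12 replicate 2, its highest library at 1576, by -0.45.

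Of the monocyte members, S100a9 was lower in colon than in ileum by -3.79 ± 0.89 on day 8 (adjusted p = 0.00267) and -3.70 ± 0.80 on day 12 (adjusted p = 0.00161). S100a8 was lower by -3.72 ± 1.02 and -3.00 ± 0.85 (adjusted p = 0.00739 and 0.00944). No colon library of those days used in the fit exceeded 71.6 for S100a9 or 23.09 for S100a8, and no ileum library was below 132 or 30.12. Within experiments 1, 2 and 3 the day 12 difference on the log2(normalized reads + 50) scale was -3.32, -2.21 and -1.16 for S100a9 and -2.23, -0.86 and -0.58 for S100a8, so each experiment had the same sign. In experiments 1 and 3 this sets 1 library against 1, here and for S100a4 below. S100a4 was lower by -1.98 ± 0.72 (adjusted p = 0.0355) and -1.73 ± 0.64 (adjusted p = 0.0412), with overlap on day 12. Within experiments 1, 2 and 3 its day 12 difference was -1.84, -1.40 and 0.26. Each of its calls is lost in 5 of the fits that leave out 1 library, and without ileum day 12 replicate 1 the day 12 value is -1.07. All 9 pan-leukocyte genes were lower in colon on both days, by a median of -2.38 and -2.34, and 7 and 8 of 9 macrophage genes tested were. Of all genes, 18.3% and 17.2% were called lower in colon on days 8 and 12. Per 1000 pan-leukocyte reads S100a4 averaged 29.8 ± 22.0 in colon and 13.2 ± 7.04 in ileum on day 12, with overlap. The part of these genes in the results of S100a4, S100a8 and S100a9 was not tested.

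On day 4 the differences, colon minus ileum, were 1.01 ± 0.52 for S100a6, -2.12 ± 0.82 for S100a9, 1.56 ± 0.56 for S100a14 and 1.39 ± 0.46 for S100a16 (adjusted p = 0.261, 0.127, 0.104 and 0.0832). With experiment 2 alone for ileum they were 3.30, -2.93, 3.87 and 2.88 (adjusted p = 3.55e-06, 0.00654, 2.26e-05 and 9.87e-05). With the experiment as replicate block 3 members were called on day 4, which were S100a6 (1.90), S100a14 (2.90) and S100a16 (2.25). The share of all genes called in these alternative fits is not given here.

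Set against the 12 epithelial genes of the same library, the 5 members higher in colon parted from each other. S100a16 read 12.4 to 31.7 per 1000 epithelial reads in colon and 17.5 to 21.2 in ileum on day 12, so the segments overlap. S100a14 read 8.25 to 16.8 and 1.82 to 4.33, and S100a6 178 to 241 and 60.5 to 135, so both remained apart between the segments with colon higher. S100a11 read 6.82 to 10.3 in colon and 10.9 to 15.5 in ileum, so its order is turned on this scale, and S100a10 read 26.2 to 44.6 and 43.5 to 59.8, with the lower mean in colon (32.9 against 52.2). These ratios were also chosen after values were seen and carry no test.

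**Figure D4:**
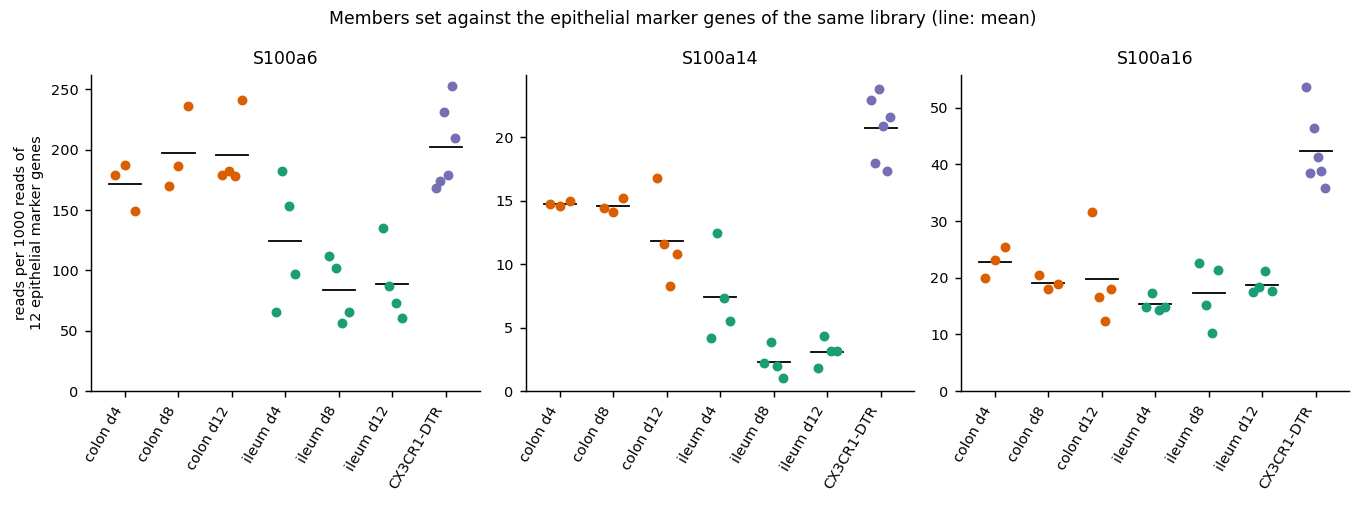
Reads of S100a6, S100a14 and S100a16 per 1000 reads of 12 epithelial marker genes in each gut library, with a line at the mean. Ileum lies below colon on days 8 and 12 for S100a6 and S100a14, overlaps colon for S100a16, and CX3CR1-DTR colon reaches 53.7 for S100a16.

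Over time after engraftment, few changes passed. From ileum day 4 to day 8, S100a14 fell by 3.10 on the log2 scale (SE 0.59, adjusted p = 0.00908) and S100a6 fell by 2.03 (SE 0.50, adjusted p = 0.0220), so 2 members were called beside 5.13% of all genes. With only the experiment 2 libraries of ileum day 4 neither was called, at -0.79 for S100a14 (adjusted p = 0.6252) and 0.27 for S100a6 (adjusted p = 0.811), so the fall rests on the libraries that went against their label. The call of S100a6 is lost without any of 5 libraries. Without ileum day 4 replicate 2 the change was -2.31 for S100a14 and -1.54 for S100a6, and with the experiment as replicate block, which called neither, -1.82 and -1.18. No member was called between colon days 4 and 8, colon days 8 and 12 or ileum days 8 and 12, nor in the interaction of segment and time from day 4 to 12, where edgeR called 0.0% of all genes in each (unadjusted p under 0.05 in 204, 329, 796 and 739 genes).

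In colon of CX3CR1-DTR recipients S100a4, S100a8 and S100a9 were again below the graft, and S100a6, S100a13, S100a14, S100a16 and S100g were above it. The graft was used again, values are per 10000000 reads on genes, and the recipient type cannot be told apart from the sequencing run and table, since the 6 libraries come from another table. There, 119 of 7102 genes (1.68%) that averaged over 100 in the graft and colon day 12 had at most 3 reads in all 6 libraries, for example Sumo2 and Anxa11, named after their values were seen. The cause was not tested, and values near 0 in that table are read with this in view. From the graft 8 members differed, beside 75.5% of all genes, and against CD11c-DTR colon on day 12, 6 did, beside 60.7%.

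**Figure D5:**
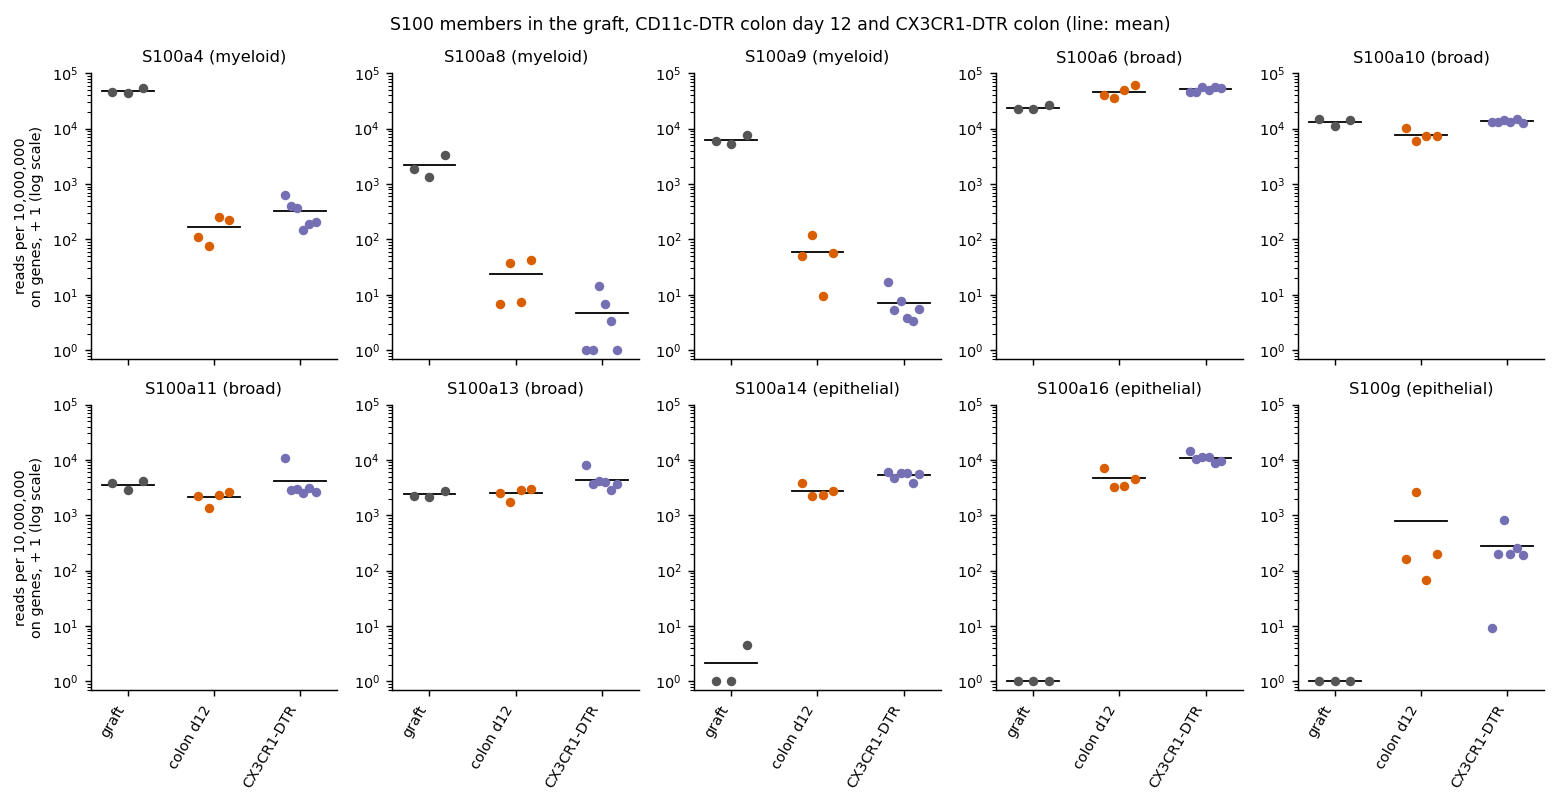
Reads per 10000000 reads on genes, plus 1 and on a log axis, of each member in the graft (3 libraries), CD11c-DTR colon on day 12 (4) and CX3CR1-DTR colon (6), with a line at the mean. S100a8 and S100a9 lie at 0 to 2 reads in all CX3CR1-DTR libraries, and S100a14 and S100a16 reach 6153 and 14390 there.

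S100a8 had 0 to 2 reads in the 6 CX3CR1-DTR libraries (lowest 0, median 1.19, highest 13.6) against 1834, 1329.9 and 3370 in the graft and 5.70, 37.0, 6.52 and 41.0 in CD11c-DTR colon. S100a9 had 1 or 2 reads (lowest 2.37, median 4.47, highest 16.3) against 5879, 5256 and 7764 in the graft and 48.4, 122, 8.69 and 55.7 in CD11c-DTR colon. From the graft, S100a8 was at least 149-fold and S100a9 at least 432-fold lower, and against CD11c-DTR colon at least 1.55-fold (adjusted p = 0.0203) and 4.02-fold lower (adjusted p = 0.000447). The first of these last calls is lost without colon day 12 replicate 2 or 4. S100a4 ran from 145 to 646 (median 289) and fell by 6.93 on the log2 scale from the graft (SE 0.47, adjusted p = 9.8e-09), and its difference from CD11c-DTR colon was 0.88 ± 0.42 (adjusted p = 0.0862). Neutrophil and granule genes summed to 2671 to 7117 in CX3CR1-DTR colon, with 9 of 14 at the floor. On the same scale they summed to 13676 to 15997 in the graft and 1042 to 2706 in CD11c-DTR colon, with 8 of 14 at the floor in the latter.

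S100a6 ran from 45041 to 57056 (median 51941), above the graft by 1.41 ± 0.22 (adjusted p = 3.31e-05) and with a difference of 0.11 from CD11c-DTR colon (95% interval -0.25 to 0.47, adjusted p = 0.619). S100a10 ran from 12633 to 14798 (median 13226) and was higher than in CD11c-DTR colon by 0.79 ± 0.16 (adjusted p = 0.000781). Its difference from the graft was 0.31 (adjusted p = 0.131). S100a11 and S100a13 had a median of 2933 and 3831, and replicate 1 stood apart at 10917 and 8147. S100a13 was higher than the graft by 1.18 ± 0.31 (adjusted p = 0.00321) and than CD11c-DTR colon by 0.78 ± 0.28 (adjusted p = 0.0247), with 0.80 and 0.53 without that library. The second of these calls is lost without colon day 12 replicate 1 or 2. S100a11 differed by 0.52 from the graft (adjusted p = 0.296) and by -0.15 without that library, and by 0.95 ± 0.41 from CD11c-DTR colon (adjusted p = 0.0543).

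S100a14 ran from 3879 to 6153 (median 5678), higher than in CD11c-DTR colon by 0.93 ± 0.23 (adjusted p = 0.00241). S100a16 ran from 8691 to 14390 (median 10759), all above the 7238, 3235, 3449 and 4548 of CD11c-DTR colon (1.23 ± 0.24, adjusted p = 0.000765). From the graft they were at least 516-fold and 1053-fold higher. S100g ran from 8.17 to 824 (median 199), at least 27.09-fold above the graft, and differed from CD11c-DTR colon by -1.45 ± 0.97 (adjusted p = 0.214). The 12 epithelial genes summed to 223692 to 273139 beside 194541 to 277110 in CD11c-DTR colon, so their ranges overlap where those of S100a16 do not. Pan-leukocyte genes summed to 2803 to 8237 beside 4650 to 15863.

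Known partners and receptors of S100 proteins, a list of 14 genes that were all tested, were called in both directions. From the graft to day 12, 9 differed in colon (5 higher, 4 lower, beside 62.6% of all genes) and 9 in ileum (4 higher, 5 lower, beside 55.9%), with a median log2 change of -0.33 and -0.36 beside 0.24 and 0.22 over all genes. Between colon and ileum 11 differed on day 8 (7 higher in colon, beside 35.0% of all genes) and 10 on day 12 (5 higher in colon, beside 32.5%). In CX3CR1-DTR colon 9 differed from CD11c-DTR colon (2 higher, 7 lower, beside 60.7%), with a median of -1.24 beside -0.11 over all genes, and these include Anxa11, which had at most 2 reads there. Anxa2, the annexin that S100a10 binds, averaged 11048 ± 657 normalized reads (SD, n = 3) in the graft, 4931 ± 1675 in colon and 2127 ± 945 in ileum on day 12 (n = 4 each). It fell by 1.94 on the log2 scale in ileum (adjusted p = 0.000216), its change in colon was -0.84 (adjusted p = 0.0641), and colon exceeded ileum by 1.09 (adjusted p = 0.0260). Ahnak, a scaffold of the S100a10 and annexin A2 complex, gave -1.78 in ileum (adjusted p = 0.000329), -0.83 in colon (adjusted p = 0.0565) and 0.95 between the segments (adjusted p = 0.0423). Bsg, a receptor for S100a9, rose in both, from 1379 ± 91.7 to 5095 ± 974 in colon and 2719 ± 367 in ileum (log2 2.23 and 1.44, adjusted p = 1.53e-06 and 0.000266).

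Of the rest of the S100 family 14 of 16 listed genes were in the table and 2 passed the filter. S100a1, known from heart and skeletal muscle, averaged 357 ± 36.1 in the graft, 2222 ± 519 in colon and 423 ± 170 in ileum on day 12. It rose to colon by 3.00 ± 0.51 (adjusted p = 2.19e-05), and colon exceeded ileum by 2.26 ± 0.44 (adjusted p = 0.000818). S100b, a glial and dendritic cell member, had no read in the graft and averaged 40.0 ± 23.5 in colon and 117 ± 44.9 in ileum on day 12, at least 5.58-fold and 16.3-fold higher. In the calcium transport list of 7 genes, to which S100g belongs by function, 4 were tested. From the graft to colon on day 12, beside 37.7% of all genes called higher, 2 of them rose. These were Vdr, the vitamin D receptor, from 40.9 ± 9.77 to 2308 ± 372 (log2 6.17, adjusted p = 3.98e-11), and Trpv6, the apical calcium channel, from no read to 225 ± 340, at least 31.3-fold, and at least 7.74-fold without colon day 12 replicate 2 (732). Trpv6 was named after its values were seen. Atp2b1 and Slc8a1, which export calcium from cells, had log2 differences of 0.07 and 0.41 from the graft (adjusted p = 0.879 and 0.422). In ileum on day 12 Vdr alone of the 4 rose, to 1030.1 ± 350.1 (log2 5.10, adjusted p = 3.78e-10), beside 35.9% of all genes called higher.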

How the data were processed

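Values are read counts per gene as deposited by the authors, who prepared libraries by a derivation of MARS-seq, mapped reads to mm9 with hisat 0.1.6, kept unique mappings and counted reads on exons with HOMER. A collapse of molecular identifiers is not given in the sources used here. In the table of CX3CR1-DTR recipients 52 columns without a name were not used. Members and lists were chosen with earlier results of these data known. After a filter that asked for 50 or more normalized reads in 3 or more libraries, genes were fitted in edgeR 4.0.16 (R 4.3.3, TMM, quasi-likelihood test, Benjamini-Hochberg adjustment over all genes tested, threshold 0.05), in 1 fit of 25 libraries (11842 genes) and 1 of 13 libraries (graft, colon day 12 and CX3CR1-DTR colon, 11718 genes). Standard errors are the log2 fold change over the square root of F, and folds against a floor of 3 counts per library are bounds. Floors cover counting error only, and 95% intervals come from the fit and include the spread between libraries.

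Experiments 1 to 3 come from the dates in the labels, 1 of which was read as a slip of the year. They were used as a block in an alternative fit. The median correlation of residuals between libraries of different groups was 0.0204 within and -0.0089 between experiments. No pair of libraries of a group was within sampling noise (smallest chi-square per degree of freedom 4.73). On counts of 11842 genes simulated for the graft and colon day 4, the larger fit found 13 of 100 genes changed 2-fold and 74 of 100 changed 4-fold, with 8 false calls. Only these genes were changed, a far smaller share than was called from the graft. These figures thus do not give the power of the comparisons with the graft. Alternatives were DESeq2 1.42.0, library totals, other filters, the compared groups alone, other choices of libraries and each library left out. Named by rule besides the members were the 3 most abundant tested genes of the lists of partners and calcium transport and every other S100 gene tested. Named outside this rule, by their values, were Trpv6, Anxa11, Sumo2 and single genes of the neutrophil and granule list. Among the latter were Ly6g, Cd177, Lcn2, Csf3r, Retnlg, Ngp and Mmp8. For each member the 3 genes of most similar pattern were found as the smallest root mean square difference of centred log2(normalized reads + 50). Motifs were searched in RefSeq promoters with python 3.11.15, numpy 2.4.6, pandas 2.3.3 and scipy 1.17.1, and figures drawn with matplotlib 3.10.9.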

Additional observations from a re-analysis of the deposited data

Results flagged for a closer look

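Single libraries stood far from the rest of their group in 8 of 50 groups of values examined for the members. S100a4 read 948.6 normalized reads in ileum day 4 replicate 4 and 92.2 to 152 in the other 3. S100a10 read 6963 in colon day 12 replicate 1 against 3593 to 4163. S100a13 read 1034 in colon day 12 replicate 2 against 1596 to 1699, and S100g read 1576 in that same library against 37.8 to 112. In CX3CR1-DTR colon, per 10000000 reads on genes, replicate 1 was high for S100a9 (16.3, which is 2 reads, against 2.37 to 6.81), S100a11 (10917 against 2578 to 3146) and S100a13 (8147 against 2831 to 4135), and replicate 3 for S100g (824 against 8.17 to 260.8). Colon day 8 replicate 1, which entered only the alternative with all 4 colon day 8 libraries, read 342 for S100a14, where the graft reached 2.42, and 899 for S100a16, where the graft had no read. Chance marks about 1 in 20 such groups.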

How the results depend on the processing

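Most values of members kept their direction and side of the threshold. In the fits that left out 1 library 2346 kept both, 33 lost and 17 gained a call and 8 changed sign, and without a filter all 106 kept both. With library totals 6 values gained and 1 lost a call, and with all 4 colon day 8 libraries 2 lost a call. Not every such value is named here. Library totals turned S100a13 from the graft to colon day 12 (-0.13) and to ileum day 4 (-0.30) and S100a6 to ileum day 4 (-0.33). With the experiment as replicate block S100a6 to ileum day 4 was -0.41, with experiment 2 alone -2.16, and S100a13 -0.43. S100a6 from ileum day 4 to 8 was 0.27 with experiment 2 alone. Of these, only the last was a call with all libraries. The cause was not tested.

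Colon against ileum on day 4 called 1 member with DESeq2, 3 with the replicate block, 6 with experiment 2 alone and 0 to 4 when 1 library was left out (4 without ileum day 4 replicate 2). Ileum day 4 to 8 called 0 with the compared groups alone, 0 with the block, 0 with experiment 2 alone and 0 to 3 when 1 library was left out. Shares of all genes in these alternatives are not given here, so the counts are not read as results about the members. The block changed no call other than those given with the results.

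With 1 library left out, S100a6 to ileum day 4 ran from -0.35 to 0.49, S100a13 to ileum day 4 from -0.16 to 0.31 and to ileum day 12 from -0.24 to 0.025, and S100g between colon and ileum on day 12 from -0.45 to 2.49. S100a11 from the graft to CX3CR1-DTR colon ran from -0.15 to 0.62, and against CD11c-DTR colon S100a6 ran from -0.0091 to 0.26 and S100g from -2.12 to 0.97. Calls of S100a8 and S100a9 in colon rest on few reads. The simulation changed too few genes to say what share of 2-fold changes is detected at 3 or 4 libraries per group. A member without a call may still have changed.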

Other observations

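For some members the genes of most similar pattern across the 25 libraries, by root mean square difference of centred log2 values, have known roles beside them. S100a10 was nearest to Anxa2 (0.25), which it binds, then Sort1 (0.30) and Ahnak (0.37). S100a6 was nearest to Lgals3 (0.34), the gene of galectin-3, then Ethe1 (0.42) and Klf4 (0.57). S100a16 was nearest to Cdx1 (0.33), an intestinal transcription factor, Rab25 (0.34), an epithelial recycling GTPase, and Stard10 (0.38), and S100a14 to Parm1 (0.30), Hsd11b2 (0.39) and Thbs4 (0.40).

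S100a4 was nearest to Napsa (0.53), Chil3 (0.80), a chitinase-like gene of Ly6C+ monocytes, and Hp (0.83), haptoglobin. S100a8 was nearest to Spn (0.51), the leukocyte sialophorin CD43, then BC035044 (0.59) and Def6 (0.60), while S100a9 was nearest to Emb (0.67), S100a8 (0.68) and Arhgdib (0.70). The calprotectin genes were thus not each other's first neighbour. S100a11 was nearest to Stxbp6 (0.40), Crip1 (0.43) and Slc22a15 (0.45), S100g to Slc30a10 (0.67), Nox1 (0.78) and Plet1 (0.79), and S100a13 to Aurkaip1 (0.22), Ndufb7 (0.22), a subunit of complex I, and Tomm22 (0.23), part of the mitochondrial import pore. These distances describe patterns that share libraries and depth, and none was tested.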
